A study of Danio rerio with 13 samples.

Results

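Among 13 zebrafish livers profiled by RNA sequencing, 3 carried a strong transcript programme of the intestine, and these 3 intestine-marked livers were set against the 10 other livers. The members were chosen by a measured value: apoea (ENSDARG00000102004), an apolipoprotein E gene, stood above 1000 CPM (the counts-per-million scale, a gene's count over the liver's total) in the intestine-marked livers and below 100 CPM in the other livers. No liver lay near these limits, since the lowest intestine-marked value was 11863 CPM and the highest other value was 2.15 CPM. Because the groups were defined by a gene of the same counts, every difference below is a description of how the 3 livers differ from the 10, and no p-value is given.

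All fish were males of the AB strain, labelled as 3 months old, with 3 tert-/-, 5 tert+/- and 5 tert+/+ animals. The mutated gene, tert, makes the enzyme subunit by which telomerase extends chromosome ends, and its mutant allele (hu3430) is a nonsense change that tert+/+ fish lack. Each genotype held 1 intestine-marked liver, and the other livers comprised 2 tert-/-, 4 tert+/- and 4 tert+/+ livers. Among the 3, genotype and liver therefore cannot be told apart, and their values are always given in the order tert-/-, tert+/-, tert+/+.

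Enterocytes, the absorptive cells of the gut, carry a brush border of microvilli set with peptidases, disaccharidases and nutrient transporters, and export dietary lipid on lipoproteins. Enteroendocrine cells among them release hormones in response to nutrients. Hepatocytes, the main cells of the liver, secrete most plasma proteins, complement and clotting factors, and handle bile acids, amino acids and glucose. Zebrafish keep many genes as duplicated copies, and the copies of 1 family can be divided between gut and liver. The label of liver was met in both groups by fabp10a, the fatty acid-binding protein of zebrafish hepatocytes, at 2912, 2320 and 4727 CPM in the intestine-marked livers, against 12920 to 33798 CPM in the other livers.

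Totals were 28590922, 24091243 and 26398557 counts in the intestine-marked livers, against 17801374 to 37309651 in the other livers. Mitochondrially encoded genes took 21.0%, 40.3% and 15.3% of the counts in the intestine-marked livers, against 7.93% to 54.7% in the other livers. Heart muscle transcripts marked 2 other livers (tert+/- replicate 5 and tert+/+ replicate 1), with cmlc1, a cardiac myosin light chain, at 1616 and 1912 CPM there and at most 2.27 CPM elsewhere. TERT itself was at 7.62, 9.09 and 15.4 CPM in the intestine-marked livers, against 0.515 to 4.22 CPM in the other livers, and a nonsense allele need not remove the transcript.

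A gene is called apart here when the CPM of the 3 livers and of the 10 livers did not overlap and the fitted change was at least 2-fold, in a model with genotype as covariate. Of 16376 genes fitted, 2366 (14.4%) were apart and higher in the intestine-marked livers and 918 (5.61%) were apart and lower, and the median log2 fold change over all genes was -0.03. These shares are the background for every count of list members below, though they are not repeated with each. Nothing is read from the members' counts against them because the same counts defined the groups. A gene nearly silent in the other livers could pass the filter on low counts only through the intestine-marked livers, where it then had to be high in at least some.

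The programme of the brush border was present at high level in the intestine-marked livers and close to absent elsewhere. Of 32 matched genes of the enterocyte brush border and digestion, 27 passed the filter, 24 were apart and higher, and 0 were apart and lower, with a median log2 fold change of 8.90. Of the 27, 15 stayed under 1 CPM in all 10 other livers. In bulk tissue, the number of cells of a type and the RNA per cell cannot be told apart. Together the list took 3.52%, 1.92% and 3.27% of the counts in the intestine-marked livers, against 0.00503% to 0.0118% in the other livers. The intestinal chitinase gene chia.1 reached 16295, 6022 and 9404 CPM in the intestine-marked livers, against 0 to 3.42 CPM in the others with a median of 0.172 CPM. Its neighbours in the family were as sharply divided, with chia.3 at 6545, 4172 and 10460 CPM against 0.0268 to 2.11 CPM, and chia.2 at 4471, 3433 and 6050 CPM against 0 to 0.835 CPM.

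**Figure D1:**
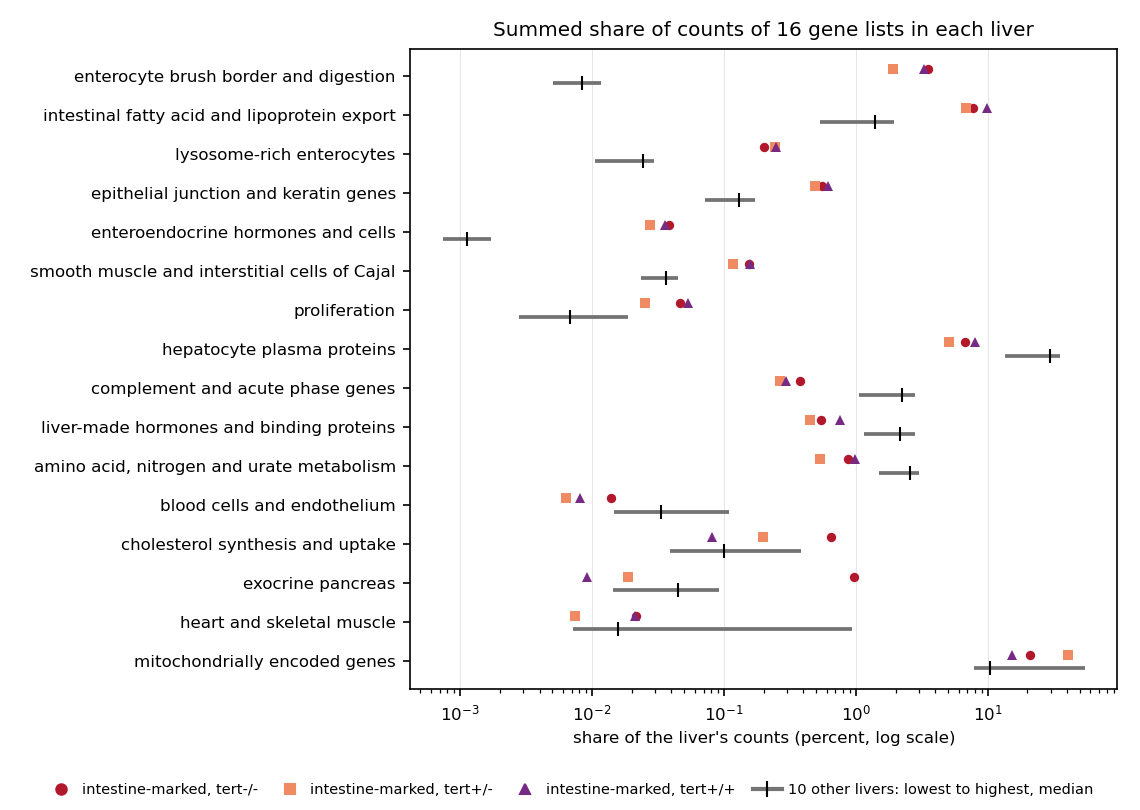
Share of each liver's counts, in percent on a log axis, taken by 16 gene lists: coloured symbols are the 3 intestine-marked livers by genotype, and grey bars run from the lowest to the highest of the 10 other livers with a tick at the median. The enterocyte list lies at 1.92% to 3.52% in the intestine-marked livers, to the right of the bar that ends at 0.0118%, while hepatocyte plasma proteins lie at 5.12% to 8.01%, to the left of a bar that starts at 13.5%.

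VIL1, which encodes villin, the actin bundler of microvilli, was at 1861, 1362 and 1630 CPM in the intestine-marked livers, against 0.0346 to 0.636 CPM in the other livers (median 0.0909 CPM). Components of the links between microvilli were divided in the same way: myo7bb was at 241, 203 and 210 CPM in the intestine-marked livers, against 0.069 to 0.777 CPM, and USH1C at 157, 150 and 158 CPM against at most 0.119 CPM in the others. Peptidases of the brush border made up much of the list. MEP1B (ENSDARG00000037533), a meprin subunit, stood at 749, 324 and 415 CPM against at most 0.119 CPM, and ANPEP (ENSDARG00000103878), aminopeptidase N, at 1366, 1376 and 1873 CPM against 2.06 to 13.2 CPM. A second ANPEP gene (ENSDARG00000097285) was level with the other livers, at 14.7, 4.07 and 7.42 CPM against 5.29 to 18.8 CPM. Trehalase (TREH) was at 108, 45.7 and 70.9 CPM in the intestine-marked livers, against at most 1.84 CPM in the others.

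Outside that list, the largest fold changes at a mean of at least 10 CPM included pvalb9, a parvalbumin, at 319, 258 and 571 CPM in the intestine-marked livers against at most 0.0296 CPM in the others (log2 fold change 15.17, standard error 0.43). Further ones were clca1, a chloride channel regulator (log2 fold change 14.50, standard error 0.49), and ENPP7, a sphingomyelinase of the gut (log2 fold change 13.45, standard error 0.40). A pair of PLAC8 genes, taken here as markers of lysosome-rich enterocytes, stood at 857, 1117 and 896 CPM (ENSDARG00000043729) and at 465, 812 and 699 CPM (ENSDARG00000094438) in the intestine-marked livers, against at most 0.278 CPM in the others. Of 19 matched genes of lysosome-rich enterocytes, which take up whole protein in the zebrafish gut, 16 passed the filter, 10 were apart and higher and 0 lower (median 2.06). Lysosomal enzymes that every cell uses differed less, with legumain (LGMN) at 140, 72.5 and 233 CPM in the intestine-marked livers, against 11.5 to 44.0 CPM, and CTSB at 178, 122 and 183 CPM against 45.9 to 127 CPM in the others, so that CTSB overlapped. Other members of this list did not follow the PLAC8 pair. CUBN, amn and SLC10A2 stayed under 1 CPM in every liver and did not pass the filter. DAB2 (ENSDARG00000053091) and dab2 were not apart, at log2 fold changes of -1.60 and -1.74, while lrp2b was apart and higher at 6.15.

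Genes of fatty acid uptake and lipoprotein export were in part higher, and part of this machinery is shared by gut and liver. Of 29 matched members, 28 passed the filter, 16 were apart and higher and 2 apart and lower (median 1.23). The list took 7.71%, 6.79% and 9.90% of the counts in the intestine-marked livers, against 0.533% to 1.93% in the other livers. It includes apoea, which is among the 16, at 11863, 11873 and 18930 CPM in the intestine-marked livers. The part of apoea in the count and in the share follows from how the groups were chosen. CD36, a fatty acid receptor, was at 1152, 1166 and 777 CPM in the intestine-marked livers, against at most 0.429 CPM in the others. MOGAT2, which re-esterifies absorbed monoacylglycerol, was at 190, 93.3 and 180 CPM in the intestine-marked livers, against at most 0.0937 CPM, and ACSL5, a fatty acyl-CoA synthetase, at 799, 340 and 599 CPM against at most 0.187 CPM. By contrast MTTP, which loads lipid onto apolipoprotein B in both organs, stood at 585, 464 and 494 CPM against 93.2 to 257 CPM in the others (log2 fold change 1.1, standard error 0.20). The small GTPase gene sar1b, needed to ship chylomicrons, had a log2 fold change of 0.58, below the 2-fold limit.

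Of 33 paralogue families with more than 1 matched member, 4 had members apart in both directions: apolipoprotein A-I, the fatty acid-binding proteins, the retinol-binding proteins and the aquaporins 8 and 9. Apolipoproteins are taken first. Levels were compared between copies as CPM per kilobase, using each gene's length. Of the apolipoprotein E family, apoea made up 76.3%, 82.1% and 82.1% in the intestine-marked livers, where it defined the groups, and at most 0.356% in the other livers. Its copy apoeb was also higher in the intestine-marked livers, at 2442, 1716 and 2721 CPM per kilobase against 182 to 818 in the other livers. Of the apolipoprotein A-I pair, apoa1a was at 13758, 16015 and 24920 in the intestine-marked livers against 505 to 1734 in the others (median 1024), while apoa1b was at 6890, 7510 and 8114 against 28912 to 62760 (median 57431). Thus apoa1a held 66.6%, 68.1% and 75.4% of the pair in the intestine-marked livers and 0.878% to 2.82% in the other livers.

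**Figure D2:**
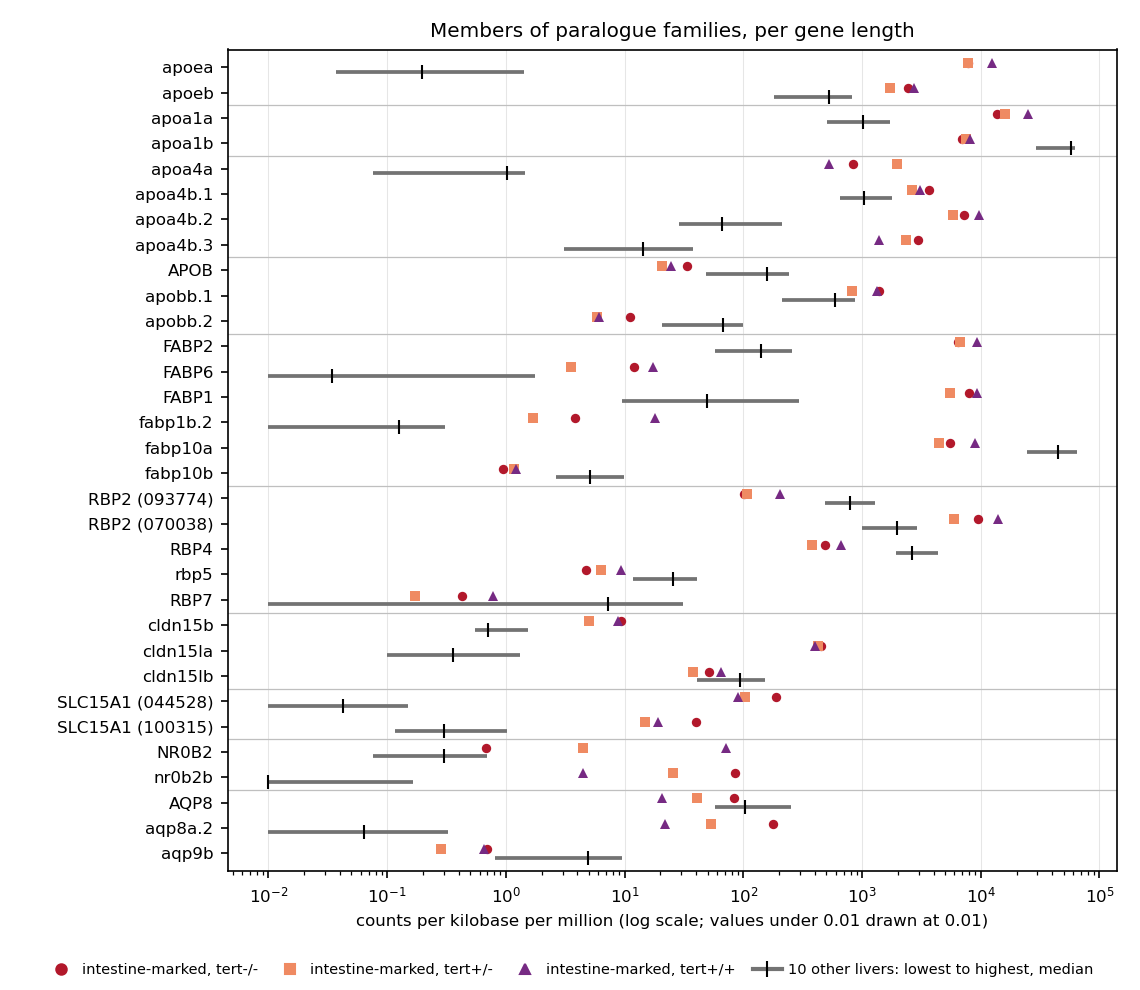
Level of each member of 10 paralogue families as CPM per kilobase on a log axis, with horizontal lines between families: coloured symbols are the 3 intestine-marked livers and grey bars the range and median of the 10 other livers. In the A-I pair apoa1a lies right of its bar and apoa1b left of it, and in the fatty acid-binding family FABP2 lies right and fabp10a left. Genes that share a symbol carry the last digits of their identifier.

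The 4 apolipoprotein A-IV genes, whose products ride on chylomicrons and other lipoproteins, were all apart and higher. Their log2 fold changes were far from even, at 10.15 for apoa4a, 6.95 for apoa4b.3, 6.08 for apoa4b.2 and 1.15 for apoa4b.1, with standard errors of 0.84, 0.61, 0.44 and 0.33. In the intestine-marked livers apoa4b.1 held 24.8%, 20.8% and 21.0% of the family and apoa4b.2 held 49.3%, 45.4% and 66%, while in the other livers apoa4b.1 held 83.8% to 95.3%. Of the apolipoprotein B genes, whose product forms the core of chylomicrons and very low density lipoprotein, apobb.1 stood at 1397, 827 and 1340 CPM per kilobase in the intestine-marked livers, against 212 to 881 in the others, and overlapped. The gene listed as APOB (ENSDARG00000042780) and apobb.2 were apart and lower, at -2.90 and -3.48 on the log2 scale (standard errors 0.35 and 0.33). Accordingly apobb.1 made up 96.9%, 96.9% and 97.8% of the family in the intestine-marked livers, against 62.8% to 77.2% in the others.

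Intracellular lipid carriers were divided in the same way. FABP2, the intestinal fatty acid-binding protein, stood at 6385, 6729 and 9277 CPM per kilobase in the intestine-marked livers, against 57.3 to 256 in the others. FABP1 (ENSDARG00000059227) was at 7910, 5547 and 9219 in the intestine-marked livers, against 9.42 to 294 in the others, and the liver form fabp10a at 5547, 4420 and 9005, against 24609 to 64376 in the others. FABP6, the bile acid carrier of the lower small intestine in mammals, was higher but low in level, at 6.12, 1.78 and 8.86 CPM in the intestine-marked livers, against at most 0.889 CPM in the others. Cellular retinol-binding proteins, which hold vitamin A inside cells, were split by copy as well. RBP2 (ENSDARG00000070038) was at 6338, 3998 and 9367 CPM in the intestine-marked livers against 662 to 1953 CPM, whereas RBP2 (ENSDARG00000093774) stood at 111, 117 and 221 CPM against 529 to 1391 CPM in the others.

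Tight junction and keratin genes were apart and higher in part. Of 30 matched members, 26 passed the filter, 14 were apart and higher and 1 was apart and lower (median 1.39). cldn15la, a claudin of the zebrafish intestine, held 88.0%, 90.9% and 84.7% of the claudin 15 family per length in the intestine-marked livers and 0.116% to 0.977% in the others, where cldn15lb held at least 97.6%. The keratin gene krt4 was at 2274, 2071 and 2664 CPM in the intestine-marked livers, against 5.97 to 32.0 CPM, and krt92 at 1100, 1019 and 1541 CPM against 8.29 to 38.5 CPM. Keratins of simple epithelia differed less, with krt8 at 452, 291 and 381 CPM against 274 to 735 CPM. The exception was epcam, an epithelial adhesion gene, which was lower at 6.72, 2.24 and 6.78 CPM against 9.06 to 24.3 CPM in the others.

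Goblet cells are the mucus-secreting cells of the gut. Of 17 matched genes, 9 passed the filter, 5 were apart and higher and 0 lower (median 4.53), and 8 stayed under 1 CPM in every liver. The matched mucin genes muc2.2, muc5.1, muc5.2 and muc5.3 were among these 8 and reached at most 0.310 CPM in any liver. AGR2, a protein disulphide isomerase needed for mucin folding, was at 71.7, 48.0 and 67.5 CPM in the intestine-marked livers against 0.0345 to 1.15 CPM in the others. Another member, itln3, had a log2 fold change of -3.86 but overlapped, at 1.15, 6.97 and 0.0379 CPM against 5.57 to 65.9 CPM in the others.

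Most intestinal transcription factors were not apart. Of 29 matched intestinal factors, 22 passed the filter, 4 were apart and higher, with HNF4G, ELF3 and klf5l among them, and FOXA2 was apart and lower (median 0.25). HNF4G, a nuclear receptor of the gut epithelium, was at 56.1, 37.0 and 71.7 CPM in the intestine-marked livers against 7.11 to 18 CPM. Its relative HNF4A, shared by gut and liver, overlapped at 112, 77.2 and 101 CPM against 46.5 to 184 CPM. The Krüppel-like factor gene klf5l stood at 34.5, 22.5 and 41.5 CPM against at most 0.674 CPM. GATA5, which also has a role in the heart, stood at 85.6, 72.2 and 38.4 CPM against 1.28 to 38.6 CPM in the others, and its log2 fold change of 3.09 was 4.10 without the livers with heart muscle transcripts.

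Of 30 hepatic factors, 25 passed the filter, 4 were apart and lower and 1 was apart and higher (median -1.20). PROX1, a homeobox factor of hepatocytes, was at 14, 10.8 and 14.2 CPM in the intestine-marked livers against 31.9 to 147 CPM (median 86.5 CPM), and hhex at 2.73, 0.706 and 0.455 CPM against 3.82 to 13.6 CPM. NR5A2, a regulator of bile acid genes, was at 16.2, 7.22 and 10.4 CPM against 20.2 to 55.0 CPM in the others.

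Most genes in the list of hepatocyte plasma proteins, which also holds intracellular proteins such as fabp10a, were lower. Of 41 matched genes, 39 passed the filter, 31 were apart and lower and 2 apart and higher, with log2 fold changes around a median of -3.12 (quartiles -3.24 and -2.82). Their share of the counts was 6.77%, 5.12% and 8.01% in the intestine-marked livers, against 13.5% to 35.0% in the other livers. Taken liver by liver, the median log2 ratio to the other livers was -3.26, -2.92 and -3.00. CPM are shares of a library, so a high share of gut transcripts lowers the share left to the other genes together. Its part in these differences was not tested.

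Transferrin (tfa) was at 7748, 3578 and 7794 CPM in the intestine-marked livers against 10990 to 66164 CPM (median 42773 CPM), and apoa2 at 5385, 5509 and 8890 CPM against 19812 to 63320 CPM in the others. The fibrinogen chains fga, FGB and FGG had log2 fold changes of -2.78, -2.86 and -3.13. Ceruloplasmin (CP), the copper protein of plasma, was at 577, 431 and 610 CPM in the intestine-marked livers, against 2090 to 4158 CPM. The lowest fold change in the list was that of apom, a carrier of sphingosine-1-phosphate on lipoproteins, at 87.4, 80.1 and 129 CPM against 253 to 3473 CPM in the others (log2 fold change -4.21, standard error 0.57). The members apart in the other direction were RBP2 (ENSDARG00000070038), a cellular retinol-binding protein, and selenop, the selenium carrier of plasma. selenop was at 2637, 1779 and 3988 CPM in the intestine-marked livers against 371 to 1322 CPM. Apolipoprotein apoc2 overlapped, at 2743, 1802 and 2297 CPM against 785 to 1929 CPM.

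**Figure D3:**
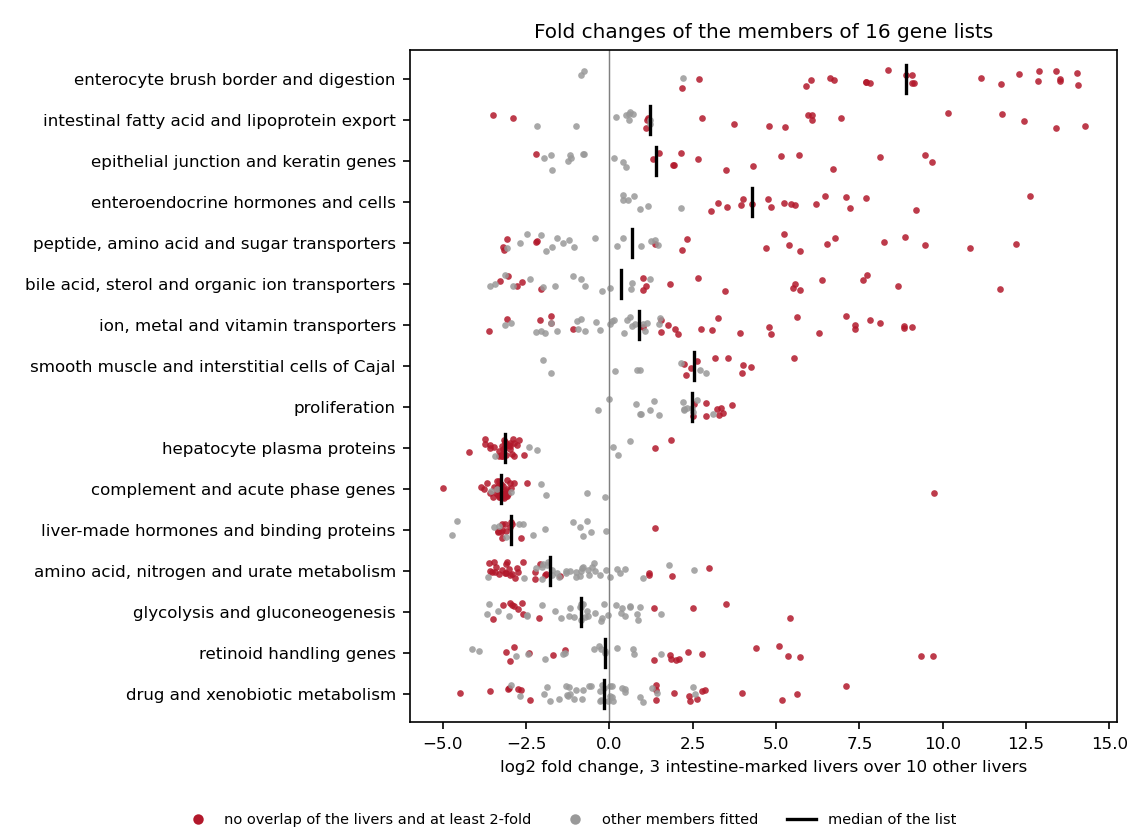
Log2 fold change (intestine-marked over other livers) of each fitted member of 16 gene lists; red points are members with no overlap between the livers and at least a 2-fold change, grey points the other members, and black bars the list medians. Most hepatocyte plasma protein and complement genes lie near their medians of -3.12 and -3.24, while transporter and metabolic lists spread to both sides of 0.

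Complement, clotting and acute phase genes were lower in most members. All 45 matched genes passed the filter, 37 were apart and lower, and 40 had a log2 fold change between -4 and -2 (median -3.24). Complement c3a.1 was at 741, 445 and 480 CPM in the intestine-marked livers against 1965 to 7639 CPM, prothrombin (f2) at 281, 237 and 277 CPM against 845 to 2315 CPM, and c9 of the membrane attack complex at 298, 197 and 185 CPM against 929 to 2258 CPM. The pentraxin gene apcs, an amyloid component, had the lowest fold change among genes called apart with a mean of at least 10 CPM, at 0.734, 0.83 and 0.682 CPM against 5.34 to 242 CPM in the others (log2 fold change -6.66, standard error 1.36). One member went the other way: mbl2, a mannose-binding lectin of the complement system, was at 459, 232 and 223 CPM in the intestine-marked livers, against 0 to 0.517 CPM in the other livers (log2 fold change 9.73, standard error 0.50).

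MYL7 and mb, a cardiac light chain and myoglobin, were also among the lowest genes. Their ranges in the other livers include the livers with heart muscle transcripts, at 8.86 to 3526 CPM for MYL7 against 3.64, 7.31 and 1.1 CPM in the intestine-marked livers. Without the livers with heart muscle transcripts, the log2 fold change of MYL7 was -2.74 in place of -6.08. The heart genes nppa, nppb and tnnc1a were at 0 CPM in the intestine-marked livers. Their medians in the other livers were also 0 CPM, with highest values of 288, 28.9 and 458 CPM.

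Hormones of the gut appeared in the intestine-marked livers at moderate level. Of 44 matched enteroendocrine genes, 25 passed the filter, 18 were apart and higher and 0 lower (median 4.28), and 19 of the 25 stayed under 1 CPM in all 10 other livers. Their summed share was 0.0380%, 0.0276% and 0.0355% in the intestine-marked livers, against 0.000735% to 0.00171% in the others. PYY, the satiety peptide YY, was at 42.4, 34.5 and 25.8 CPM in the intestine-marked livers against at most 0.318 CPM. The motilin-like gene mlnl stood at 71.1, 31.4 and 51.9 CPM against 0.858 to 1.97 CPM, and gcga, a glucagon precursor that also yields glucagon-like peptides, at 12.9, 7.51 and 6.25 CPM against at most 0.376 CPM. CCK (ENSDARG00000070810), a cholecystokinin gene, was uneven at 22.1, 15.2 and 2.58 CPM against at most 0.148 CPM in the others.

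adgrg4a, an adhesion receptor whose human counterpart is found in serotonin-releasing enteroendocrine cells, had 0 counts in all 10 other livers and 45.9, 30.1 and 27.8 CPM in the intestine-marked livers. It was at least 3141-fold higher there, with a floor of 3 counts over the other livers together. The enkephalin precursors PENK (ENSDARG00000036045), at 7.55, 58.5 and 119 CPM, and penka, at 19, 16.4 and 18 CPM, stayed at or below 0.786 CPM in the other livers. DDC, the decarboxylase that makes serotonin and dopamine, stood at 82.7, 45.2 and 72.4 CPM against 1.78 to 7.19 CPM in the others. Not every gut hormone was seen in every liver, since gip stood at 7.45 CPM in the tert-/- intestine-marked liver but at 0.415 and 0.379 CPM in the tert+/- and tert+/+ ones, within the 0 to 0.422 CPM of the other livers.

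**Figure D4:**
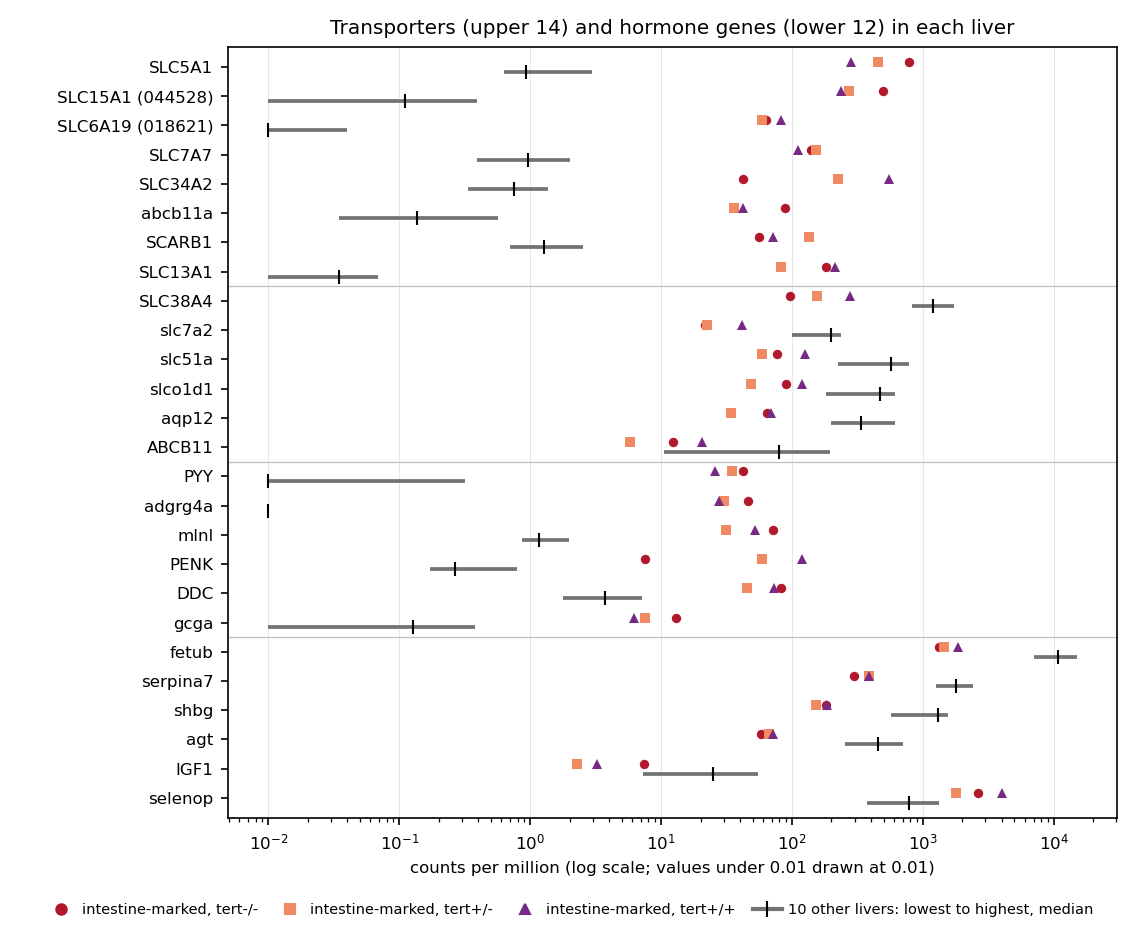
Level in CPM on a log axis of 14 transporter genes (upper part) and 12 hormone and carrier genes (lower part), with coloured symbols for the 3 intestine-marked livers and grey bars for the range and median of the 10 other livers. Gut transporters such as SLC5A1 lie right of their bars at 281 to 776 CPM, hepatocyte transporters such as SLC38A4 left of theirs at 96.5 to 275 CPM, and selenop is the only liver-made gene drawn that lies to the right.

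Among hormones and hormone carriers of the liver, members apart were nearly all lower. Of 34 matched genes, 28 passed the filter, 12 were apart and lower and selenop alone was apart and higher (median -2.96). Carriers of thyroid and sex hormones were among them, with serpina7, thyroxine-binding globulin, at 299, 386 and 386 CPM in the intestine-marked livers against 1251 to 2409 CPM, and shbg at 181, 153 and 185 CPM against 565 to 1560 CPM. Angiotensinogen (agt) stood at 57.6, 66.9 and 70.9 CPM against 255 to 709 CPM. In the growth factor axis, IGFALS and igf2a were apart and lower, at -3.11 and -3.26 on the log2 scale (standard errors 0.53 and 0.37), while IGF1 (ENSDARG00000094132) was at 7.38, 2.28 and 3.22 CPM against 7.31 to 54.9 CPM in the others and touched the range. Of the lipase inhibitors, angptl8 was at 15.9, 8.01 and 16.9 CPM in the intestine-marked livers, against 57.5 to 142 CPM in the others, whereas ANGPTL4 overlapped at 57.3, 38.8 and 37.3 CPM against 12.6 to 120 CPM in the others.

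Receptors leaned lower but held members apart in both directions (25 of 40 passed the filter, 4 apart and higher, 3 apart and lower). Their median was -0.97, with quartiles of -2.34 and 0.13. Beside these counts, 14.4% of all genes fitted were apart and higher and 5.61% apart and lower. The glucagon receptor gcgra, the leptin receptor lepr and the estrogen receptor ESR1 were apart and lower, with gcgra at 6.19, 5.89 and 10.2 CPM in the intestine-marked livers against 20.8 to 54.6 CPM. The thyroid hormone receptor THRA (ENSDARG00000000151) was apart and higher, at 9.51, 12.7 and 9.66 CPM against 2.57 to 6.19 CPM in the others, and THRB overlapped.

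Nutrient transporters held members apart in both directions, the lower ones being carriers of amino acids and citrate. Among 46 matched genes for peptides, amino acids and sugars, 36 passed the filter, 14 were apart and higher and 5 apart and lower (median 0.68). SLC5A1, the sodium-driven glucose carrier of the brush border, was at 776, 450 and 281 CPM in the intestine-marked livers against 0.629 to 2.98 CPM in the others (median 0.931 CPM). The facilitated glucose transporter SLC2A2, used by enterocytes and hepatocytes, overlapped at 189, 98.1 and 126 CPM against 111 to 348 CPM. SLC15A1, the peptide transporter of the gut, was present in 2 copies: ENSDARG00000044528 at 493, 274 and 238 CPM against at most 0.395 CPM, and ENSDARG00000100315 at 111, 42.0 and 53.3 CPM against 0.328 to 2.87 CPM in the others. Per length, the first copy held 82.4%, 87.4% and 82.5% of the peptide transporter family in the intestine-marked livers.

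Neutral amino acid uptake is carried by SLC6A19, of which 3 genes were apart and higher. ENSDARG00000018621 was at 62.7, 58.6 and 81.8 CPM in the intestine-marked livers against at most 0.0398 CPM, ENSDARG00000091560 at 18.5, 19.9 and 14.4 CPM against at most 0.225 CPM, and ENSDARG00000056719, less even, at 53.3, 75.8 and 12.5 CPM against 0.0398 to 2.36 CPM. The exchangers of the basal side were higher with them: SLC7A7 at 139, 151 and 111 CPM against 0.395 to 2.02 CPM, SLC7A8 at 190, 135 and 154 CPM against 0.984 to 4.40 CPM, and their heavy chain slc3a2a at 232, 185 and 328 CPM against 3.95 to 15.1 CPM. The other heavy chain gene, SLC3A2 (ENSDARG00000037012), was apart and lower at 2.41, 5.23 and 3.86 CPM against 6.65 to 34.2 CPM. Carriers of hepatocytes were lower, with the system A carrier SLC38A4 at 96.5, 156 and 275 CPM against 829 to 1731 CPM, the arginine transporter slc7a2 at 21.6, 22.3 and 41.6 CPM against 99.6 to 235 CPM and SLC13A5, a citrate carrier, at 51.7, 40.1 and 38.0 CPM against 75.8 to 244 CPM in the others.

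Carriers of bile acids, sterols and organic ions also held members apart in both directions (34 of 45 passed, 14 apart and higher, 5 apart and lower, median 0.34). Of the bile salt export pumps, abcb11a was at 87.7, 36.3 and 42.4 CPM in the intestine-marked livers against 0.0345 to 0.564 CPM, while ABCB11 (ENSDARG00000070078) overlapped, at 12.3, 5.81 and 20.4 CPM against 10.4 to 195 CPM. The bile acid exporter subunit slc51a was apart and lower, at 76.5, 58.4 and 127 CPM against 223 to 784 CPM, as was slco1d1, an organic anion transporter, at 90.2, 48.6 and 120 CPM against 181 to 615 CPM in the others. The sodium bile acid carriers SLC10A1 and SLC10A2 did not reach 1 CPM in any liver. SCARB1, a receptor for lipoproteins and carotenoids, was at 56.3, 134 and 70.9 CPM in the intestine-marked livers, against 0.703 to 2.55 CPM, and SLC13A1, a sulphate carrier, at 180, 81.6 and 213 CPM against at most 0.0692 CPM. Of the cholesterol exporters, abca1b was apart and higher at 52.8, 40.1 and 34.1 CPM against 0.132 to 18.7 CPM, while ABCA1 (ENSDARG00000074635) overlapped, at 12.6, 9.96 and 26 CPM against 16.8 to 330 CPM in the others.

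Among 70 matched genes for ions, metals and vitamins, 54 passed the filter, 22 were apart and higher and 6 apart and lower (median 0.87). Vitamin carriers included SLC23A1 for ascorbate, at 232, 82.8 and 81.5 CPM against 1.83 to 5.66 CPM, SLC52A3 for riboflavin, at 30.0, 24.9 and 19.6 CPM against 0.0877 to 5.00 CPM, and SLC19A3 for thiamine, at 11.2, 8.05 and 13.3 CPM against at most 0.0937 CPM in the others. The zinc importer SLC39A5 and the manganese exporter SLC30A10 were near 0 outside the intestine-marked livers, with log2 fold changes of 9.06 and 8.85. The iron exporter SLC40A1 overlapped, at 231, 137 and 201 CPM in the intestine-marked livers, against 7.17 to 325 CPM. Apart and lower were aqp12, an aquaporin, at 64.0, 34.3 and 69.2 CPM against 198 to 609 CPM, and ATP7B, which loads copper onto ceruloplasmin, at 18.7, 15.9 and 13.2 CPM against 19.7 to 73.5 CPM in the others.

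Genes of bile acid synthesis, a function of the liver, and of its feedback were apart in both directions. Besides enzymes, the list holds bile acid carriers, receptors and regulators. Among its members apart and higher were abcb11a, FABP6, klb, fgfr4 and nr0b2b. Of 32 matched genes, 29 passed the filter, 7 were apart and higher and 3 apart and lower (median -0.36, and 0.03 when libraries were scaled by their totals alone). CYP7A1, the rate-limiting enzyme of the classical pathway, was at 828, 420 and 13.7 CPM in the intestine-marked livers, against 0.0439 to 6.07 CPM in the other livers, with a median of 0.272 CPM (log2 fold change 8.36, standard error 1.64). Likewise cyp46a1.1, a cholesterol hydroxylase gene, was at 687, 299 and 426 CPM in the intestine-marked livers, against 0.229 to 1.37 CPM. A later enzyme, CYP8B1 (ENSDARG00000053068), overlapped at 410, 246 and 73.7 CPM against 59.3 to 223 CPM in the others, and its order among the 3 livers was that of CYP7A1. The receptor pair for the gut signal FGF19 was higher, with klb at 20.6, 12.3 and 17.5 CPM against at most 0.83 CPM and fgfr4 at 41.4, 19.97 and 31.4 CPM against 1.14 to 7.53 CPM in the others. FGF19 itself was near 0, at 0.07, 0.12 and 0.038 CPM in the intestine-marked livers, against 0 to 38.5 CPM in the others.

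Small heterodimer partner, a repressor of CYP7A1 in mammals, is encoded by NR0B2 and nr0b2b, and the copies ran in opposite order among the 3 livers. NR0B2 was at 2.1, 13.7 and 218 CPM in the intestine-marked livers against 0.234 to 2.13 CPM in the others, so that the tert-/- value lay inside the range of the other livers. In reverse, nr0b2b was at 61.9, 18.6 and 3.22 CPM in the intestine-marked livers, against at most 0.119 CPM in the others. Per length nr0b2b held 99.2%, 85.2% and 5.88% of the pair.

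Other genes also set the 3 livers apart from each other. Among 6335 genes with a mean of at least 10 CPM in them, the highest of the 3 exceeded the lowest by a median of 1.7-fold, and by at least 10-fold for 98 genes. Of these 98, 69 were highest in the tert-/- liver, 6 in the tert+/- liver and 23 in the tert+/+ liver. The same split over all 6335 genes was not made. Many of the 69 were genes of the exocrine pancreas. Trypsin (prss1) was at 1705, 32.0 and 9.36 CPM in the intestine-marked livers, against 4.12 to 124 CPM in the others. The exocrine pancreas list took 0.971%, 0.0189% and 0.00913% of the counts in the intestine-marked livers, against 0.0144% to 0.0918% in the other livers. Insulin (ins) was at 38.7, 0.872 and 0 CPM in the intestine-marked livers, against at most 0.889 CPM, and pdx1, a factor of pancreas and upper gut, at 29.6, 6.93 and 0.644 CPM against at most 0.337 CPM in the others.

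**Figure D5:**
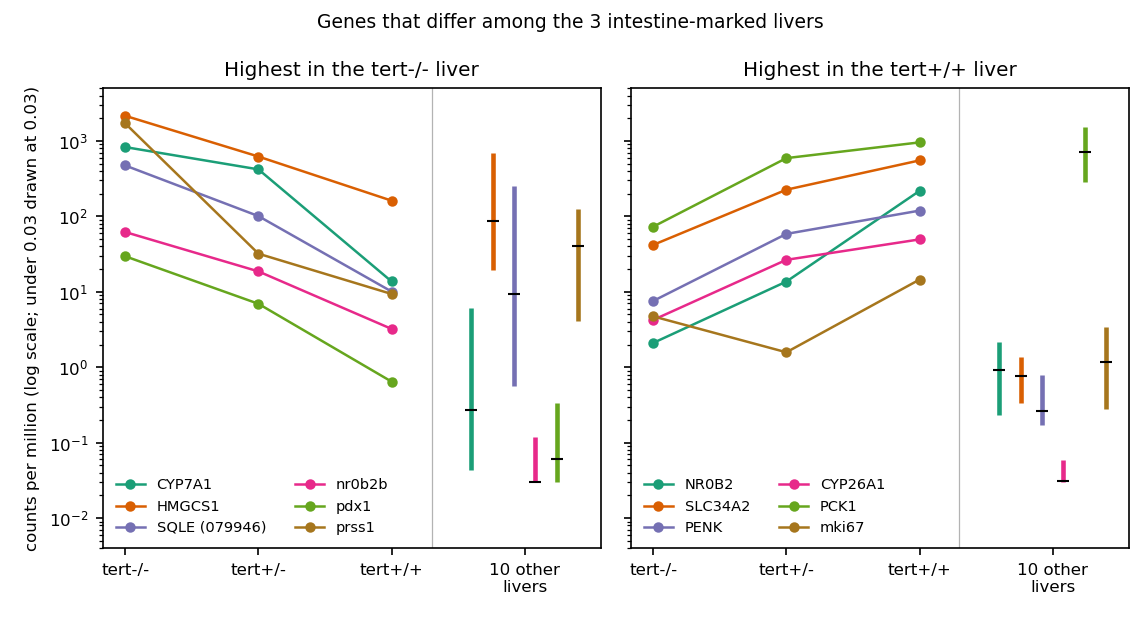
Level in CPM on a log axis of 12 genes that differed among the 3 intestine-marked livers; lines join the values of 1 gene across the tert-/-, tert+/- and tert+/+ livers, and bars at the right of each panel give the range of the 10 other livers with a dash at the median. CYP7A1 (828, 420 and 13.7 CPM) and NR0B2 (2.1, 13.7 and 218 CPM) run in opposite directions; with 1 liver per genotype these differences cannot be assigned to genotype.

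Cholesterol synthesis ran in the order of CYP7A1. Of 28 matched genes, 27 passed the filter, and only ldlrb, an LDL receptor gene, was apart (higher, at 58.7, 17.8 and 15.2 CPM in the intestine-marked livers, against 0.449 to 7.16 CPM in the others), with a list median of 0.65. The list took 0.650%, 0.196% and 0.0807% of the counts in the intestine-marked livers, against 0.0389% to 0.382% in the other livers. HMGCS1, at the entry of the pathway, was at 2152, 621 and 161 CPM in the intestine-marked livers, against 19.7 to 694 CPM, and squalene epoxidase (SQLE, ENSDARG00000079946) at 472, 101 and 10.1 CPM against 0.562 to 251 CPM in the others. In the other livers their medians were 86.9 CPM (HMGCS1) and 9.34 CPM (SQLE). Of the 3, only the tert-/- liver lay above the range of the other livers for these genes.

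A second group was highest in the tert+/+ liver. The phosphate carrier SLC34A2 (ENSDARG00000012903) was at 41.8, 226 and 552 CPM in the intestine-marked livers against 0.337 to 1.36 CPM, and the retinoic acid hydroxylase CYP26A1 at 4.23, 26.5 and 49.5 CPM against at most 0.0593 CPM in the others. PENK, given above, ran in the same order. PCK1, the key enzyme of gluconeogenesis, was at 72.9, 591 and 956 CPM in the intestine-marked livers, against 283 to 1545 CPM in the others, so that the tert-/- liver alone lay below the other livers. All 3 livers stood above the other livers for the first 3 of these genes.

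In glucose metabolism, enzymes with members apart included some whose isoforms differed in direction. Of 52 matched genes, 48 passed the filter, 4 were apart and higher and 9 apart and lower (median -0.85). Without the livers with heart muscle transcripts that median was -0.68, and -0.46 without also the liver with most mitochondrial counts. Lactate dehydrogenase LDHA (ENSDARG00000101251) was at 1064, 697 and 1032 CPM in the intestine-marked livers against 4.31 to 125 CPM (median 7.51 CPM), and ldhbb at 142, 201 and 206 CPM against 486 to 1313 CPM. No member of the phosphoenolpyruvate carboxykinase, fructose bisphosphatase, hexokinase or aldolase families was apart. Pyruvate kinase of the liver (PKLR) stood at 325, 434 and 640 CPM against 1584 to 3035 CPM in the others, while PKM (ENSDARG00000099730) was higher by 1.32 on the log2 scale (standard error 0.44). Glycogen synthase followed suit, with GYS1 at 75.1, 45.7 and 88.9 CPM in the intestine-marked livers, against 4.45 to 24.6 CPM and the liver form GYS2 at 28.1, 10.8 and 30.5 CPM against 70.6 to 346 CPM. Glycogen phosphorylase of the liver (PYGL) was at 82.7, 84.5 and 173 CPM against 428 to 974 CPM in the others. The glucose-6-phosphatase genes G6PC1 (ENSDARG00000013721) and g6pc1a.1, which release free glucose, were apart and lower at -2.12 and -2.85 on the log2 scale (standard errors 0.58 and 0.51).

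The list of fatty acid oxidation, ketone and lipid synthesis genes held members apart in both directions. Of 47 matched genes, 45 passed the filter, 6 were apart and higher and 6 apart and lower. Over all genes fitted, 14.4% were apart and higher and 5.61% apart and lower. The list median was -0.30, and 0.08 when scaled by totals alone. Acetyl-CoA carboxylase ACACA and fatty acid synthase FASN, which make new fatty acids in the liver, were apart and lower, ACACA at 234, 111 and 179 CPM in the intestine-marked livers against 550 to 3863 CPM and FASN at 80.0, 29.6 and 105 CPM against 240 to 4841 CPM. ACACB, the form that restrains oxidation, stood at 445, 97.4 and 231 CPM against 9.42 to 61.1 CPM. HADHA, a gene of beta-oxidation, overlapped at 191, 141 and 197 CPM against 75.9 to 216 CPM in the others.

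Of the genes of amino acid, nitrogen and urate metabolism, 25 stood apart and lower. In all 71 were matched, 64 passed the filter and 4 were apart and higher (median -1.79), so that most overlapped or differed less than 2-fold. BHMT, which remethylates homocysteine, was at 955, 856 and 1036 CPM in the intestine-marked livers against 3494 to 7639 CPM (median 6108 CPM), and TDO2, the tryptophan dioxygenase of liver, at 189, 172 and 228 CPM against 952 to 2254 CPM in the others. Tyrosine breakdown was lower at TAT, hpda, HGD and FAH, with log2 fold changes of -3.43, -3.59, -3.08 and -2.93, and urate oxidase (uox) at -3.32. The methionine adenosyltransferases were divided: MAT1A of the liver was at 286, 141 and 205 CPM in the intestine-marked livers, against 622 to 1739 CPM, and mat2al at 95.1, 80.9 and 120 CPM against 4.45 to 13.8 CPM. The glycine decarboxylase gene GLDC was apart and higher, at 84.1, 51.6 and 95.6 CPM against 4.12 to 47.9 CPM in the others.

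Vitamin A handling held members in both directions (35 of 46 passed, 13 apart and higher, 6 apart and lower, median -0.13, and 0.34 when scaled by totals alone). The carotene-cleaving enzyme BCO1 was at 111, 136 and 103 CPM in the intestine-marked livers against 0.705 to 4.56 CPM, and its relative bco1l at 138, 161 and 81.9 CPM against 8.42 to 38.4 CPM. STRA6, a retinol receptor, stood at 42.1, 24.0 and 35.0 CPM against at most 0.0937 CPM, and ALDH1A2, which makes retinoic acid, at 191, 62.6 and 123 CPM against 0.658 to 18.1 CPM in the others. RBP4, the plasma retinol carrier, was apart and lower.

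Drug-metabolising genes gave a similar mixture (57 of 65 passed, 13 apart and higher, 7 apart and lower, median -0.15, and 0.30 when scaled by totals alone). The cytochrome cyp3c3 was at 348, 131 and 85.2 CPM in the intestine-marked livers against 0.141 to 1.55 CPM, and cyp3a65, an intestinal CYP3A gene, at 550, 545 and 839 CPM against 77.9 to 344 CPM. CYP2R1, a vitamin D hydroxylase, was among the lowest genes at 5.18, 1.58 and 0.682 CPM against 6.19 to 270 CPM. In the antioxidant family of glutathione peroxidases, gpx1b stood at 587, 260 and 755 CPM against 0.069 to 1.54 CPM and gpx1a at 253, 195 and 292 CPM against 335 to 606 CPM in the others.

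Cells of the gut wall beneath the epithelium were represented unevenly. Of 20 matched genes of smooth muscle and interstitial cells, 18 passed the filter, 10 were apart and higher and 0 lower (median 2.53), and the list took 0.155%, 0.117% and 0.159% of the counts in the intestine-marked livers against 0.0235% to 0.0446% in the others. The markers of interstitial cells in the list were not apart. KIT overlapped at 1.22, 0.581 and 0.417 CPM in the intestine-marked livers, against 0.119 to 0.504 CPM in the others. ANO1 overlapped too, at 0.315, 0.291 and 0.720 CPM against 0.0468 to 6.89 CPM, and kitb did not pass the filter. Smooth muscle actin (acta2) was at 263, 181 and 310 CPM in the intestine-marked livers against 3.97 to 20.9 CPM, and MYH11 (ENSDARG00000009782), smooth muscle myosin, at 82.5, 40.7 and 47.9 CPM against 4.45 to 10.3 CPM in the others. Genes of enteric neurons and glia showed no such division: 14 of 25 passed the filter, 1 was apart and higher and plp1b apart and lower (median -0.25, 0.20 when scaled by totals alone, and 0.07 without the livers with heart muscle transcripts and the one with most mitochondrial counts). The summed share of that list was 0.00507%, 0.00435% and 0.00350% in the intestine-marked livers, against 0.00309% to 0.0117% in the others.

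Proliferation genes, which the renewing gut epithelium expresses, were higher or overlapped. Of 30 matched, 25 passed the filter, 9 were apart and higher and 0 lower (median 2.47). PCNA was at 105, 52.6 and 135 CPM in the intestine-marked livers against 2.72 to 35.2 CPM, and MCM2, a DNA replication helicase, at 48.7, 24.6 and 38.4 CPM against 0.172 to 9.54 CPM. Markers of mitosis were less even, with mki67 at 4.72, 1.58 and 14.5 CPM against 0.276 to 3.46 CPM in the others.

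Immune genes and blood genes differed in direction. Of 39 matched immune cell genes, 24 passed the filter, 6 were apart and higher and pigr, the polymeric immunoglobulin receptor, was apart and lower (median 0.96). The pan-leukocyte gene ptprc was at 29.2, 15.9 and 33.8 CPM in the intestine-marked livers against 3.79 to 14.9 CPM. EPX, an eosinophil-type peroxidase, differed among the 3 livers, at 6.96, 0.249 and 156 CPM against at most 0.358 CPM in the other livers. Of 19 matched genes of blood cells and endothelium, 17 passed the filter, 7 were apart and lower and 1 apart and higher (median -1.85), with haemoglobin hbaa1 at 58.5, 16.3 and 38.8 CPM against 66.4 to 598 CPM and the endothelial receptor kdrl at 23.5, 20.7 and 13.7 CPM against 28.9 to 85.8 CPM in the others.

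Of the endocrine pancreas 6 of 16 genes passed the filter and 4 were apart and higher (median 4.60), with gcga and pdx1 among them. All 6 stayed under 1 CPM in every one of the other livers. Those nearly silent there could pass the filter only through the intestine-marked livers, so nothing is read from this median. The gene gcga is also counted among the enteroendocrine genes above, and insulin passed the filter but was not apart. Of the liver's bile duct, stellate and resident cells 20 of 25 passed, 3 were apart and higher and 1 lower (median 0.51), and CFTR, a chloride channel of ducts and gut, was at 48.0, 10.9 and 7.35 CPM in the intestine-marked livers, against at most 0.225 CPM in the others. Of antimicrobial and microbe-responsive genes 17 of 25 passed, 2 were apart and higher and 3 lower (median -0.67), the lower ones being gpx1a, complement factor cfb and the ribonuclease rnasel3. Among stress and RNA handling genes 33 of 36 passed, 2 were apart and higher and 1 lower (median -0.20, and 0.24 when scaled by totals alone). The lower one, HSPA5, a chaperone of the endoplasmic reticulum, was at 294, 237 and 146 CPM in the intestine-marked livers, against 303 to 2369 CPM in the others, and SQSTM1, an autophagy receptor, at 81.5, 116 and 97.8 CPM against 8.1 to 34.6 CPM. Of testis and kidney genes 6 of 24 passed and 2 were apart and higher, of heart and skeletal muscle genes 18 of 28 passed and MYL7 alone was apart and lower, and of the 13 mitochondrially encoded genes 0 were apart in either direction. The part of these cell types, of pancreas, and of mitochondrial share in the differences above was not tested.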

How the data were processed

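Liver RNA of 13 zebrafish was sequenced from libraries made with a TruSeq v2 kit. The authors deposited raw counts per gene for 32105 genes, naming in the submitters' processing notes the tools STAR 2.4.1d, featureCounts 1.4.6-p4 and bcl2fastq 1.8.4 and the build GRCz10; the strand setting is not given in the sources used here, so reads of overlapping or antisense genes and of near-identical copies cannot be told apart. The authors also deposited RPKM, in which 7.69% of values were scaled by their own liver's total; RPKM served for gene lengths and as an alternative.

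CPM are counts over the liver's total. Fold changes with standard errors came from edgeR 4.0.16 (R 4.3.3) with TMM scaling, its filter on low counts, and a quasi-likelihood fit of genotype and group over all livers, tested on simulated counts. The prior count of the fit was 0.125. Each standard error is the size of the log2 fold change over the square root of the F statistic of the fit. DESeq2 1.42.0, limma 3.58.1 on log2 RPKM, other scalings and filters, single genotypes and leaving out each liver were alternatives. No p-value is given, since a gene of the same counts defined the groups.

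Members and the 35 lists were chosen with earlier results of these data known. Symbols matched 26269 identifiers, and many are those of the human gene. Named genes are the largest changes at a mean of at least 10 CPM, up to 5 members apart per list and those opposed to it, members of paralogue families, and transporters, hormones and transcription factors of at least 10 CPM; genes named for differing among the 3 livers or for overlapping were chosen after their values were seen. No library repeated another: chi-square divided by its degrees of freedom was at least 86.1 in all 78 pairs. Each liver was counted as a separate fish, and replicate numbers only name livers. Promoter sequences were not analysed here. A few list members are counted but not reported here by name. The lowest total was 17801374 counts, which limits the precision of genes near 1 CPM.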

Additional observations from a re-analysis of the deposited data

Results flagged for a closer look

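In 3 of 35 lists, the highest of the 10 other livers lay far from the next liver: genes of fatty acid oxidation and lipid synthesis at 1.78% of the counts, genes of enteric neurons and glia at 0.0117%, and mitochondrially encoded genes at 54.7%. Such gaps arise by chance in about 1 in 20 groups.

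Exocrine pancreas genes differed in direction between genotypes, with the intestine-marked liver over the other livers of its genotype at a median log2 of 4.49 in tert-/-, -1.38 in tert+/- and -2.14 in tert+/+. Mitochondrially encoded genes did so too, at -0.83 in tert-/-, 2.18 in tert+/- and -1.67 in tert+/+. With 1 intestine-marked liver per genotype, neither difference was tested.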

How the results depend on the processing

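Of the genes picked by the naming rules above, none called apart changed direction under any alternative run. Other genes called apart were not checked for this. No list median of at least 2-fold changed direction either. The median log2 fold change of the enterocyte list (8.90) was 9.37 with library totals without TMM, 6.96 and 4.86 on log2 RPKM with pseudocounts of 0.1 and 1, 8.07 within tert+/- and 7.76 within tert+/+. That of hepatocyte plasma proteins (-3.12) was -2.73, -2.77 and -2.74 under the same scaling and pseudocounts and -2.93 within tert+/-. Most RPKM values were scaled by another liver's total, so results on RPKM mix that scaling with the pseudocount. Leaving out single livers, these medians ran from 8.38 to 9.06 and from -3.19 to -2.99, the number of genes apart and higher from 2372 to 3147 and the number apart and lower from 925 to 1459. The last value was reached without the intestine-marked tert-/- liver (replicate 1), and 3147 without the intestine-marked tert+/- liver (replicate 3). Leaving out livers eases the demand of no overlap, so a rise in these counts is built into the definition. The same holds for the settings below that leave out certain livers. Of the genes apart and higher 1538 passed at 4-fold, those apart and lower numbered 501 on RPKM with a pseudocount of 1, and 3612 genes were at least 2-fold lower when overlap was allowed. Library totals without TMM moved the median of all genes to 0.36 and changed the sign of 6 list medians near 0, the cause of which was not tested beyond that shift. Among settings added after seeing the data, without the livers that held heart muscle transcripts 2747 genes were apart and higher and 946 lower, and 2793 and 1354 without also the liver with the most mitochondrial counts. No paired analysis was possible because replicate numbers only follow the order of accession and no test was made. Depth limits values near 1 CPM.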
